A study of Mus musculus with 6 samples.

Results

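The small heat shock proteins examined here are Hspb1, Hspb2, Hspb3, Hspb6, Hspb7, Hspb8 and Cryab, 7 of the 19057 genes with a named probe on the arrays. They were chosen by symbol, after Hspb7 had been selected on its difference between knockout and wild-type signal on these arrays, with every probe examined and the brightest probe of a gene used, so their knockout differences and their levels are given as a description, and nothing is read from their place in fits across all genes. All 7 genes passed the filter on dim probes, through 8 of their 9 probes. Gene expression was measured in adult Mus musculus hearts with 6 single-colour Illumina bead arrays. The general line had 1 array of a wild type and 1 of a general Jmjd2a knockout, with no sex stated. The heart-specific line had 2 wild-type and 2 heart-specific Jmjd2a knockout arrays, a female and a male of each. Jmjd2a is the older name of Kdm4a, a demethylase of histone H3 lysines. The strain, the Cre driver of the heart-specific deletion and whether each array holds 1 animal could not be taken from the labels (not given in the sources used). No 2 arrays of the heart-specific line share both sex and genotype. A p-value of the main fits therefore reflects disagreement between pairs of arrays. In it, sex, line, animal and technical spread cannot be told apart.

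Small heat shock proteins share an alpha-crystallin domain, assemble into oligomers and hold unfolding proteins without using ATP until other chaperones refold them or hand them to autophagy. Heart muscle holds several of them in quantity, where they bind desmin, filamin C, titin and actin at the Z-disc and along the filaments. Heat shock factors raise some members of the family in stressed cells by binding inverted GAA repeats in promoters, while others are made mainly in striated muscle whatever the stress.

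Promoter sequences from the RefSeq table for GRCm38.p6 were found for 5 of the 7 genes, and 3 are printed, for the 2 genes whose levels differed most between arrays (Hspb7 and Hspb1) and for Hspb8, whose level differed little. Each runs from 250 bases before to 50 bases after the annotated start, and the capitals mark matches to GAANNTTC, an inverted pair of the repeat read by heat shock factors.
Hspb7 (chr4:141420529-141420828, plus strand): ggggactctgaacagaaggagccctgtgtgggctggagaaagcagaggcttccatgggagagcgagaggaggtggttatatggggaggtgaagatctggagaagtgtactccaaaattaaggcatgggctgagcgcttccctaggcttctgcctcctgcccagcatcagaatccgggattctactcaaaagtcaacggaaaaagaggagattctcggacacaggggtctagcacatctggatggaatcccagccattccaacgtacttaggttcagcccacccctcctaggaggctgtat
Hspb1 (chr5:135887669-135887968, plus strand): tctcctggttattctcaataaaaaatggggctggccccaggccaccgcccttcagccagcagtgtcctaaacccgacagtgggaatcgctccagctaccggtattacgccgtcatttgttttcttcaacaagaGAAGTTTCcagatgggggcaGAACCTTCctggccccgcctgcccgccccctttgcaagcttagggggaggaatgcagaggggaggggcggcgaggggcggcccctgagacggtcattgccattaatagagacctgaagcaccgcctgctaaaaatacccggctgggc
Hspb8 (chr5:116422815-116423114, minus strand): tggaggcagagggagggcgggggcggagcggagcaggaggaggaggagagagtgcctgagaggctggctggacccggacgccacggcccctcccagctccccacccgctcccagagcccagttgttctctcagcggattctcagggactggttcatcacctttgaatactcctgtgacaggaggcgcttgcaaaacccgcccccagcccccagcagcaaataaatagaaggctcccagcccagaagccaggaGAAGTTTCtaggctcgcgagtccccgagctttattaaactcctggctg
GAANNTTC reads the same on both strands. It was matched in 4 of the 5 genes, with 2 matches in Hspb1 and 1 each in Hspb3, Hspb8 and the second of the 2 promoters of Hspb6, against 7.86% of all 32851 promoters of this length. Hspb7 held no match, which says only that these letters are not in this window. The mirrored form TTCNNGAA, which can overlap the first, was in 0 of the 5 genes and 8.52% of all promoters. TATAAA, on either strand, was in Hspb3 and the second Hspb6 promoter (13.6% of all promoters). A MEF2 box was in Hspb3 alone, where it overlapped TATAAA (3.19% of all promoters), and a CArG box in none of the 5 (1.63%).

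The hearts carried the signal of heart muscle. The ventricular marker list shares Ckm with the skeletal muscle list, so its markers do not measure ventricle alone. All 9 ventricular markers with a probe lay above background on every array, at intensities from 1893 to 50079, and log2 values correlated between 0.972 and 0.992 for any 2 arrays across genes. The general wild type stood apart in other cell markers. Its summed atrial marker intensity was 43858, against 14052 to 27119 on the other 5 arrays, and its summed platelet marker intensity was 4158 against 1094 to 1680. Most of the atrial sum was Nppa (39341 in the general wild type). Of 8 measured atrial markers 5 were highest on this array, as were 5 of 5 measured platelet markers and 3 of 4 red cell markers. The remaining red cell marker, the globin gene Hba-a1, was lowest there (31905). The red cell sum did not stand apart, at 39190 against 35503 to 48740 on the other arrays. Of 10 skeletal muscle markers 6 passed the filter on dim probes, their sum running from 10928 to 25144 and highest in the general wild type. Most of it came from Acta1 and Ckm, which heart muscle also expresses, Tnni2 read 212 to 400, and Mylpf, Pvalb and Atp2a1 lay between 107 and 202, while the myosin genes Myh1 and Myh4, Tnnt3 and Actn3 did not pass. The deleted gene could not check the labels, since the brightest of 3 Kdm4a probes exceeded the background level on 1 array only, with 123 in the male wild type. With 6 arrays, precision is limited throughout.

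Hspb7, the cardiovascular member of the family that binds filamin C and takes part in keeping thin filaments in order, had a higher signal in every wild type than in any knockout. Its only probe, with no other to check it, read 3947 in the female and 2770 in the male wild type of the heart-specific line. In the female and male knockouts it read 430 and 564. In the general line the wild type read 1098 and the knockout 618. The 2 genotypes did not overlap over all 6 arrays, in the direction of lower knockout, which held for 3.06% of the 11284 genes tested and is printed beside Hspb7 only as a background, since Hspb7 was chosen for this pattern. The reverse arrangement, with every knockout higher, held for no member and for 3.14% of all genes. The wild type exceeded the knockout 9.17-fold in the female pair, 4.91-fold in the male pair and 1.78-fold in the general pair. On the log2 scale these are differences of -3.20, -2.30 and -0.83 (knockout minus wild type), with a mean of -2.75 ± 0.64 (SD, n = 2 pairs) in the heart-specific line. Hspb7 was the only gene of 11284 (0.00886%) whose knockout signal was lower by at least 1 in both heart-specific pairs. That count depends on the threshold, since Pdlim3, named after its values were seen, stood at -1.48 in the female and -0.996 in the male, and Klhl21 at -1.02 and -0.981. The next lowest means were those of Pdlim3 (-1.24) and Arhgef19 (-1.16).

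Within each genotype Hspb7 varied more than most genes. Its 3 wild-type values spanned 1.85 on the log2 scale, more than in 99.5% of genes, and its 3 knockout values spanned 0.52, more than in 91.2%. The median gene spanned 0.31 among wild types and 0.23 among knockouts. The general wild type differed from the mean of the heart-specific wild types by -1.59, and the general knockout from the mean of the heart-specific knockouts by 0.33. Without the general pair the difference was the -2.75 given above, and over all 3 pairs it was -2.11 ± 1.20 (SD, n = 3 pairs). Fewer cells of a type and less RNA per cell cannot be told apart in whole-heart RNA. Summed intensity of the 9 ventricular markers was 198192 and 215782 in the female wild type and knockout and 235464 and 202346 in the males. Atrial marker sums were higher in both heart-specific knockouts (14052 and 24110 in females, 19264 and 27119 in males). Most of each sum was Nppa (12345 and 21562 in females, 17782 and 25410 in males). Of the 8 measured atrial markers only 3 were higher in both knockouts, and 0 were lower in both. The median marker difference was 0.55 for females and -0.003 for males. The part of atrial tissue in the Hspb7 difference was not tested.

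**Figure D1:**
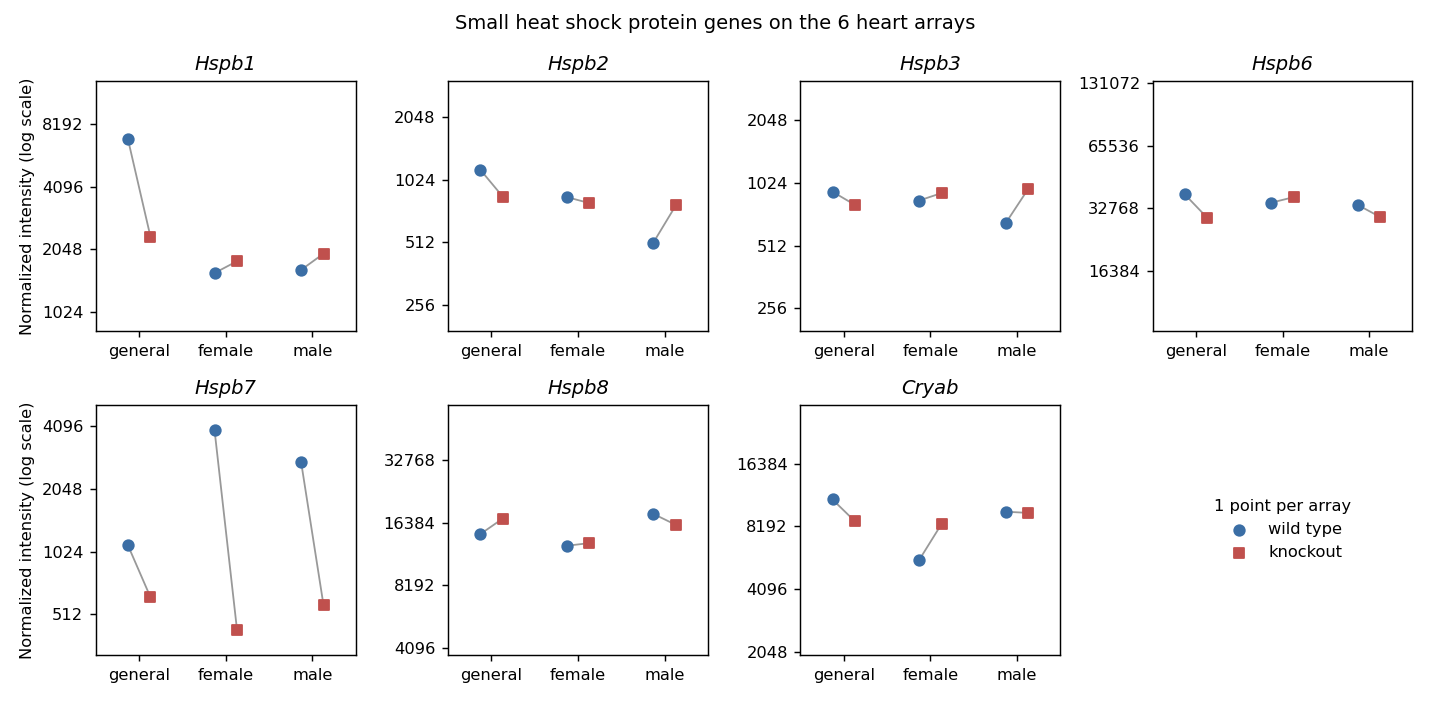
Normalized intensity (log scale) of the brightest probe of each small heat shock protein gene, with 1 circle per wild-type and 1 square per knockout array and a line joining each pair; every panel spans the same number of doublings. Hspb7 falls from 3947 to 430 in the female and from 2770 to 564 in the male pair, and Hspb1 stands at 6931 in the general wild type against 1572 to 2354 elsewhere.

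Hspb1, which caps and protects actin filaments and is phosphorylated under stress, was high on a single array. Its intensity was 6931 in the general wild type, while the general knockout read 2354, the female wild type and knockout 1572 and 1792, and the male wild type and knockout 1627 and 1950. The general difference was -1.56, which rests on a single array of each genotype and has no replicate check. It was the only member with a general difference of at least 1 in size (0.434% of all genes were lower by as much). In the heart-specific pairs the knockout was slightly higher, by 0.19 and 0.26, a mean of 0.23 ± 0.05 (SD, n = 2 pairs). A further Hspb1 probe, at 93 to 109, was below background on all 6 arrays.

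The general wild type was the highest of the 6 arrays for 4 of the 7 members (Hspb1, Hspb2, Hspb6 and Cryab), as it was for 18.7% of all genes. Hspb1 was 1 of 28 genes (0.248%) that lay at least 1 on the log2 scale above every other array there. Its gap of 1.56 ranked 14th among them. The same 28 genes held Flnc, which encodes filamin C (gap 1.09), the LIM-domain gene Fhl1 (2.14), the stretch-responsive genes Ankrd1 (1.34) and Ankrd2 (1.67), and the skeletal actin gene Acta1 (1.90). They also held the platelet gene Ppbp (2.92) and the atrial gene Myl7 (2.07). The largest gap was that of Timp1 (3.41). Among the rest were the inflammation genes Lcn2 (1.67), S100a9 (1.45) and S100a8 (1.18), with Serpina3n (1.64), Tnc (1.53), Lgals3 (1.44) and Nppb (1.05). The part of atrial tissue, blood, inflammation or stress of this heart in the Hspb1 value was not tested. These genes were named after their values were seen.

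Cryab, the alpha-B crystallin that guards desmin and titin, had its lowest value in the female wild type. Its intensity was 5641 there, 8425 in the female knockout, 9652 and 9525 in the male wild type and knockout, and 11052 and 8668 in the general wild type and knockout. The 3 knockouts spanned 0.18 on the log2 scale and the 3 wild types 0.97. The differences were 0.58 in the female, -0.02 in the male and -0.35 in the general pair. Hspb2, which lies next to Cryab in gene order and whose product binds the myotonic dystrophy kinase, did not follow it. Its values were 843 and 789 in the female wild type and knockout, 509 and 769 in the males, and 1143 and 847 in the general line. The low array was the male wild type, so its differences were -0.10, 0.60 and -0.43 in the female, male and general pair.

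Hspb3, a muscle member whose protein forms a complex with Hspb2, was also lowest in the male wild type. It stood at 655 there and 958 in the male knockout, 843 and 916 in the female wild type and knockout, and 930 and 802 in the general line. Both heart-specific knockouts lay above both wild types, with a mean difference of 0.33 ± 0.30 (SD, n = 2 pairs), and the general pair went the other way (-0.21). The 2 members whose heart-specific groups did not overlap with higher knockouts were Hspb1 and Hspb3, and 13.9% of all genes were arranged so. Hspb7 was the 1 member with lower knockouts (15.5% of all genes).

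Hspb6, a target of cyclic nucleotide-dependent kinases in muscle, and Hspb8, the partner of Bag3 in chaperone-assisted autophagy, varied least in fold. The Hspb6 signal was 34808 and 37017 in the female wild type and knockout, 33914 and 29641 in the males, and 38156 and 29408 in the general line. These values lie toward the top of the scale, whose highest value is 50962, where differences can be compressed. The differences were 0.09, -0.19 and -0.38. The brighter Hspb8 probe read 12667 and 13044 in the female wild type and knockout, 18034 and 15968 in the males, and 14399 and 17123 in the general line. Its differences of 0.04, -0.18 and 0.25 were matched in sign by the other probe (0.16, -0.14 and 0.32). Wild types and knockouts of the heart-specific line overlapped for both genes.

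**Figure D2:**
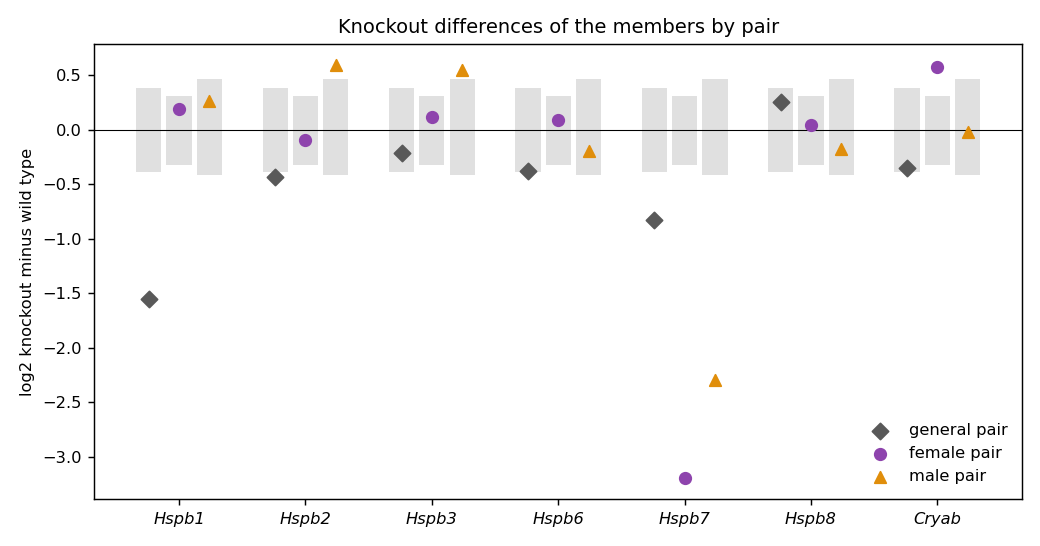
Difference between knockout and wild type (log2) of each member in the general, female and male pair, 1 point per pair, over grey bars from the 5th to the 95th percentile of all 11284 genes in that pair (-0.39 to 0.38 in the general, -0.32 to 0.31 in the female and -0.42 to 0.47 in the male pair). Hspb7 lies below the bar in every pair and Hspb1 and Hspb2 below it in the general pair (-1.56 and -0.43), while Cryab lies above it in the female pair (0.58) and Hspb2 and Hspb3 above it in the male pair (0.60 and 0.55).

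As a family the genes did not move one way. In the female pair 2 were lower and 5 higher in the knockout, in the male pair 4 were lower and 3 higher, and in the general pair 6 were lower and 1 higher. The median member difference was 0.09 in the female, -0.02 in the male and -0.38 in the general pair, beside -0.01, -0.00 and 0.02 over all genes. Without Hspb7 the member medians were 0.10, 0.12 and -0.36, so the male value turned sign. Hspb7 alone had the same sign in all 3 pairs (10.5% of all genes were lower in all 3, and 11.3% higher, with no member among them), and 4 members went opposite ways in the female and male pair. For 6 of the 7 genes, Hspb6 being the exception, the wild types lay further apart than the knockouts, which was so for 65.4% of all genes. Between lines, the general wild type minus the mean heart-specific wild type was 2.12 for Hspb1, 0.80 for Hspb2, 0.58 for Cryab and -1.59 for Hspb7. For the remaining 3 genes it lay between -0.07 and 0.32, and among knockouts the same comparison gave -0.22 to 0.33 for all 7.

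Female against male hearts of the heart-specific line was a contrast that the choice of genes did not use. The signals on these arrays were known at that choice, so the test is not independent of it. With limma and genotype as a term, 0 of the 7 members passed an adjusted p of 0.05, and 2 had an unadjusted p under 0.05. Of all genes 6 passed (0.0532%). Hspb8 differed by -0.40 ± 0.13 (SE; female minus male, log2; limma adjusted p = 0.369), with both females below both males. Its other probe gave -0.17 ± 0.14 (SE; limma adjusted p = 0.745 with every probe on its own). Cryab differed by -0.48 ± 0.17 (SE; limma adjusted p = 0.39), by -0.77 among wild types and -0.18 among knockouts. Hspb2 differed by 0.38 ± 0.18 (SE; limma adjusted p = 0.501), nearly all of it among wild types (0.73 against 0.04 among knockouts). For Hspb1, Hspb3, Hspb6 and Hspb7 the differences lay between -0.09 and 0.18 (limma adjusted p from 0.684 to 0.948). Hspb7 was higher in the female wild type by 0.51 and lower in the female knockout by 0.39 than in the male. Without the male knockout, limma passed Hspb2 (0.68, adjusted p = 0.00386) and Hspb8 (-0.49, adjusted p = 0.0428), in a fit of 3 arrays that called 1080 genes, had no genotype term and set the lone male, a wild type, against females of both genotypes. Females and males did not overlap for 4 of the 7 members, against 42.7% of all genes, a share near the background.

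The remaining genes of the family did not pass the filter on dim probes, which does not show that they were not expressed. The lens crystallin Cryaa stood at 96 to 127, the testis genes Hspb9 (brighter of its probes) and Odf1 at 105 to 117 and 102 to 126, and Hspb11, a component of intraflagellar transport, at 101 to 113. None of these 4 genes was above background on at least 2 arrays.

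Genes that work with the family were measured in 5 lists of 61 genes, of which 52 were above background. With limma, 0 of the 52 reached an adjusted p of 0.05 between heart-specific knockouts and wild types, where 3 had an unadjusted p under 0.05, and 0 passed over the 3 pairs, where 2 did. Over all genes 0 of 11284 passed in either comparison (0%), with 505 and 303 at an unadjusted p under 0.05. Of the 52 genes, 16 were lower and 7 higher in both heart-specific knockouts, shares set beside 25.8% and 24.5% of all genes.

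Partners in chaperone-assisted autophagy numbered 10 measured genes, with 3 lower and 1 higher in both heart-specific knockouts and list medians of -0.02, -0.12 and 0.06 in the female, male and general pair. The constitutive Hsp70 gene Hspa8 had female and male differences of -0.05 and -0.26, its relative Hspa4 of -0.28 and -0.10, and the autophagosome gene Map1lc3b of 0.50 and 0.03. Bag3, named after its values were seen because its product binds Hspb8, read 6391 and 9055 in the general wild type and knockout, 9023 and 10379 in the females and 12911 and 9770 in the males. Its differences had no common sign (0.50, 0.20 and -0.40).

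Heat shock factors and heat-induced genes numbered 14 measured of 18, with 5 lower and 2 higher in both heart-specific knockouts and medians of -0.11, -0.07 and 0.01 in the female, male and general pair. Hsf1, the main factor of the response, had no usable probe. The Hsp110 gene Hsph1 read 735 and 657 in the female wild type and knockout and 877 and 516 in the males, the calcyclin-binding gene Cacybp differed by -0.30 and -0.74, and the Hsp40 gene Dnajb4 by 0.27 and 0.24. The limma adjusted p between heart-specific genotypes was 0.976 for each of these 3 genes. With the kept probes of a gene averaged, the mean heart-specific Dnajb4 difference shrank from 0.25 to 0.09, while those of Hsph1 and Cacybp did not change.

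Client genes of the Z-disc and filaments numbered 11 measured of 12, with medians of 0.07, -0.12 and -0.24 in the female, male and general pair. Flnc, the gene of the filamin that Hspb7 binds, read 2355 and 2474 in the female wild type and knockout, 2607 and 3088 in the males, and 6591 and 2305 in the general line. Its knockout differences were thus 0.07, 0.24 and -1.52, close in size to the 0.19, 0.26 and -1.56 of Hspb1. The desmin gene Des had female and male differences of -0.07 and -0.39, and the tropomyosin gene Tpm1 of 0.09 and 0.08. Among 8 measured genes of thin filament length and actin assembly, 3 were lower and 1 higher in both heart-specific knockouts, with medians of 0.03 in the female, -0.26 in the male and -0.01 in the general pair. The leiomodin Lmod3, which nucleates actin, differed by -0.15 and -0.04, the formin Fhod3 by -0.07 and -0.83, and the profilin Pfn1 by 0.32 and 0.86. Of 9 measured muscle transcription factors, 2 were lower and 1 higher in both. Myocd, the coactivator of serum response factor, differed by -0.22 and -0.14, Hand2 by -0.29 and -0.14 and Tbx5 by 0.21 and 0.08, near background. With the kept probes of a gene averaged, the mean heart-specific difference shrank from -0.18 to -0.06 for Myocd. It shrank from -0.45 to -0.17 for Fhod3 and from 0.59 to 0.39 for Pfn1. That of Tpm1 went from 0.09 to 0.10, and Des, Flnc, Lmod3, Hand2 and Tbx5 did not change.

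**Figure D3:**
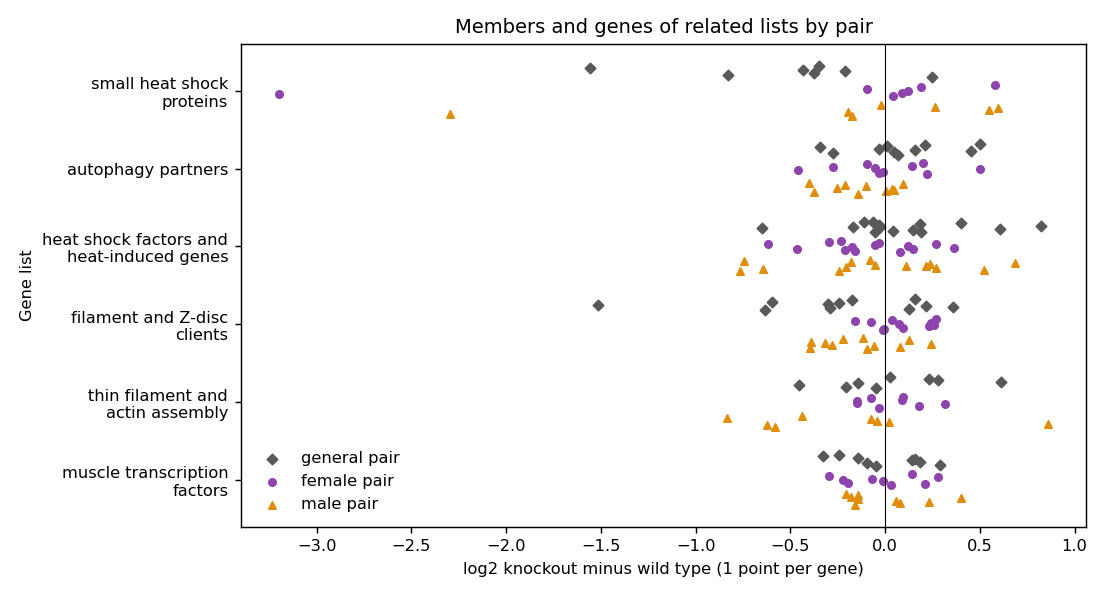
Difference between knockout and wild type (log2) of the 7 members and of the 52 measured genes in 5 related lists, 1 point per gene and pair. The female and male Hspb7 points (-3.20 and -2.30) lie outside the range of the other genes, and in the general pair Hspb1 and Flnc (-1.56 and -1.52) lie lowest.

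Hspb7 lies on chromosome 4, as does Kdm4a, and its nearest tested neighbours in the gene order of GRCm38.p6 were examined. Arhgef19, a guanine nucleotide exchange factor 2 places before it, was lower in both heart-specific knockouts. Its intensity was 261 and 141 in the female wild type and knockout, 392 and 146 in the males, and 149 and 144 in the general line. The 4 values outside the heart-specific wild types lay within 141 to 149, a short distance above background. Epha2, between Arhgef19 and Hspb7, was near background on all 6 arrays (120 to 134) with female and male differences of 0.02 and 0.12. On the other side Zbtb17 differed by -0.53 and -0.07, Spen by 0.00 and -0.07 and Fblim1 by -0.43 and 0.21. Spen was near background as well (131 to 151). Fbxo42, 3 places before, differed by -0.23 and 0.15. With limma none of these 6 neighbours passed in the heart-specific comparison (adjusted p from 0.529 for Arhgef19 to 0.99). Among the 40 tested genes within 20 places on either side, a span set after the data were seen, 10 were lower and 10 higher in both heart-specific knockouts, and the female and male median differences were -0.01 and -0.00.

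**Figure D4:**
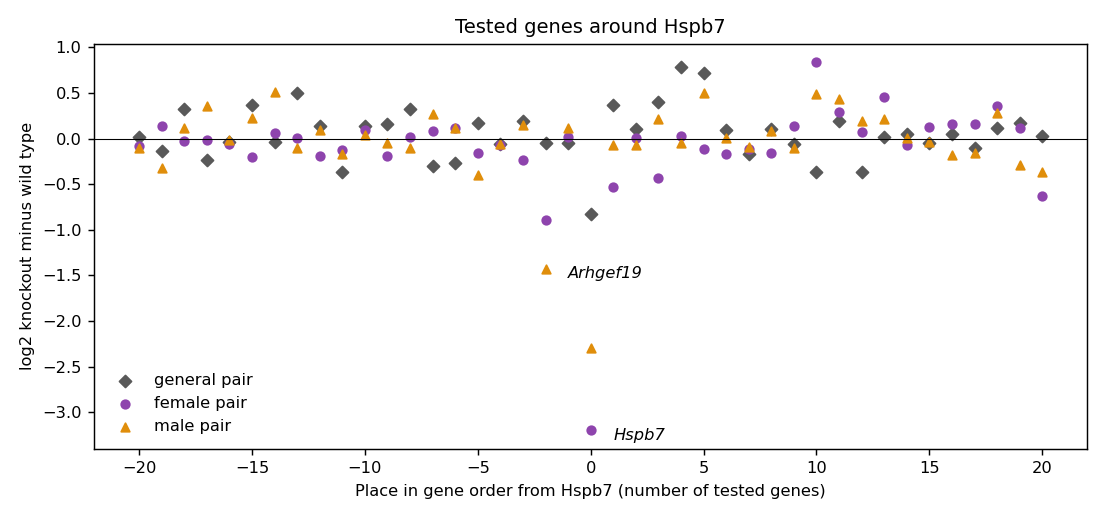
Difference between knockout and wild type (log2) of Hspb7 and the 20 tested genes on either side, by place in gene order (number of tested genes from Hspb7), with 1 point per gene and pair. Hspb7 and Arhgef19, 2 places before it, have the lowest female and male values, and the median of the 40 neighbours is -0.01 in the female pair.

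Neighbours of the other members were taken 1 place to either side. Those of Hspb1 were Mdh2 and Ywhag, whose female differences were 0.44 and 0.48 and male differences -0.50 and -0.40. Beside Hspb3 lay Snx18 (-0.19 and 0.01) and Ndufs4 (-0.07 and 0.36). Hspb6 lay between Proser3 (-0.06 and 0.23) and Psenen (-0.01 and 0.49), and Hspb8 between Prkab1 (0.15 and -0.22) and Srrm4 (-0.02 and -0.13). Cryab and Hspb2 were each other's neighbour, with Dixdc1 on the side of Cryab (0.28 and -0.04) and Fdxacb1 on that of Hspb2 (-0.01 and -0.04). Of these neighbours Fdxacb1 (117 to 131), Dixdc1 (112 to 148), Proser3 (115 to 141) and Srrm4 (129 to 163) lay at or near background. Their small differences do not show that they were unchanged.

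Likeness to Hspb7 was measured over the 6 arrays among 613 genes whose log2 values ranged over at least 1, as a description of patterns on shared arrays. Klhl21, whose product brings substrates to a Cul3-based ligase, was most like it (Pearson r = 0.92, Spearman rho = 1), and ranked the arrays in the same order. Its wild-type values of 1144, 1253 and 1234 in the general, female and male line lay close together, unlike those of Hspb7, and its knockouts stood at 637, 619 and 625. Arhgef19 came next (r = 0.87, rho = 0.89). Without the 2 arrays farthest from the median of Hspb7, the female and male wild types, r was 0.93 for Klhl21 and 0.90 for Arhgef19. There Arhgef19 lay within 141 to 149, a short distance above background, and Klhl21 set only the general wild type apart from nearly equal knockouts. These values of r therefore cannot show that the likeness holds without the arrays left out. The next genes, the thioredoxin-interacting Txnip (r = 0.79) and the transcriptional coactivator Sub1 (r = 0.79), fell to 0.35 and turned to -0.45 without the female and male wild types. Most unlike Hspb7 was the interferon-induced kinase gene Eif2ak2 (r = -0.82, rho = -0.77, and r = -0.68 without the same arrays). It read 461 and 650 in the general wild type and knockout, 439 and 634 in the females and 381 and 885 in the males. Ccdc124 (r = -0.76), the repair gene Mgmt (-0.76) and Nudt6 (-0.75) followed, and their r turned positive without those arrays (0.94, 0.41 and 0.75).

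**Figure D5:**
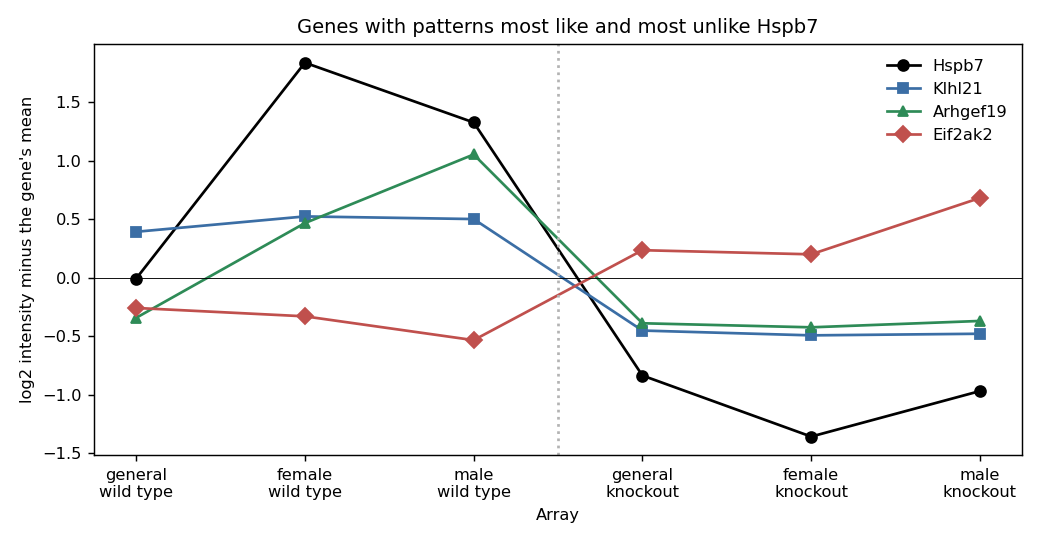
Log2 intensity of Hspb7, Klhl21, Arhgef19 and Eif2ak2 on each array minus the gene's mean over the 6 arrays, with wild types on the left and knockouts on the right. Hspb7 and Klhl21 are lower on all 3 knockout arrays than on any wild type, while Arhgef19 is high only in the female and male wild types (261 and 392, against 141 to 149).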

How the data were processed

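Adult mouse heart RNA was labelled with biotin and hybridised to 6 arrays, which the titles group into 3 pairs. Per the labels, the authors used GenomeStudio to make the deposited intensities, and its version and options are not given in the sources used. The 6 columns of the authors' intensities had the same median of 117 and sorted values within 2.32%, as after quantile normalization, and no background subtraction (lowest value 82.5). A further table, headed by numbers that match no label, has 12 columns of per-array values, none of which was used.

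Values were taken to log2 with no further normalization. Probes were named from the supplied platform annotation (1 gene for 34885 probes, several for 18, none for 10378), with symbols from GRCm38.p6 by gene ID for 34807. The background level was the 95th percentile of 1523 probes of olfactory, vomeronasal and trace amine receptors (121 to 124). Named probes above it on at least 2 arrays were kept, and the brightest stood for each of 11284 genes.

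Tests used R 4.3.3 and limma 3.58.1 with Benjamini-Hochberg adjustment over all genes kept. The sex test had genotype as a term, with residual and prior degrees of freedom of 1 and 5.74, and knockout tests of other genes had the pair as a block. The fits were tested on simulated data. Members, gene lists, rules for named genes and tests were chosen with earlier results of these data known, and support nothing by themselves. Named genes are the members, the other family genes, Kdm4a, the 4 genes most like and the 4 most unlike Hspb7, up to 3 per list with the largest smaller difference of one sign in both heart-specific pairs, the 3 nearest tested genes on each side of Hspb7 and 1 on each side of the other members, and those said to be named after their values were seen. The numbers pairing the arrays are their sex and line, per the labels, with 2 pairs in the heart-specific line. Alternatives changed the background, the probe rule, the scaling, the filter and the model terms, or left out arrays.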

Additional observations from a re-analysis of the deposited data

Results flagged for a closer look

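Knockout differences of opposite direction between the lines were seen for Hspb1, where the general pair lay -1.78 from the mean of the heart-specific pairs on the log2 scale, and for Hspb3, where it lay -0.55 from it. Both heart-specific pairs moved one way and the single general pair the other, and the difference between lines was not tested.

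Opposite directions in the female and the male pair were seen for Hspb2 (female minus male difference -0.69), Cryab (0.60), Hspb6 (0.28) and Hspb8 (0.22). Each sex had 1 pair and the difference was not tested.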

How the results depend on the processing

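The mean Hspb7 difference over the heart-specific pairs was between -3.06 and -2.75 under background subtraction and centring of arrays, and -3.20 or -2.30 with 1 pair left out. Averaging of probes could not change it, since Hspb7 had only 1 probe. In the heart-specific comparison over all genes, limma gave a count of 1 with arrays centred, with an offset of 50, with every probe on its own, with probes averaged and with no filter, and of 0 with a floor of 16. That gene was Hspb7, which was chosen on this comparison, so the count is no test of it. Leaving out 1 array gave 0 to 2 genes there (2 without either wild type, Hspb7 again among them) and 0 genes over the 3 pairs when a pair was left out. Without the replicate block 0 genes were called in either comparison. The sex comparison called 6 genes, 0 with background subtracted to a floor of 16, 21 with every probe on its own and 38 with probes averaged. Leaving out 1 array gave 2 to 1080 genes (318 without the male wild type, 1080 without the male knockout). Fits of 3 arrays had no genotype term or replicate block, so genotype enters these sex differences, and the lone array of a group was assumed to vary like the other 2. With 1 array left out the sex difference ranged from -0.22 to 0.0445 for Hspb1, from -0.12 to 0.42 for Hspb3 and from -1.54 to 1.66 for Hspb7, and so turned sign, for Hspb1 and Hspb7 without the female wild type or the male knockout and for Hspb3 without the male wild type. The small number of arrays and the background left in the intensities limit what dim genes such as Arhgef19 can show.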
